A study of Mus musculus with 16 samples.

Results

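The Polycomb group genes described here were *Ezh1*, *Ezh2*, *Eed*, *Suz12*, *Jarid2*, *Bmi1*, *Rnf2*, *Ring1*, *Cbx2* and *Cbx7*, 10 genes found by symbol among the 25054 genes of the raw count table. All 10 were among the 15413 genes with enough counts to test, so no member was lost to the filter on low counts. RNA was sequenced from 16 osteosarcomas of mice older than 6 months, of both sexes, that carried the tamoxifen-inducible, pre-osteoblast-directed Cre allele OsxCreERT2+/- together with floxed p53fl/fl and Rb1fl/fl alleles. All of these mice had received tamoxifen at 400 ug/g at 1 month of age, so these alleles and the treatment were shared by both groups. The 8 tumors labeled KO also carried Arid1afl/fl, a conditional allele of a SWI/SNF chromatin remodeling subunit, and came from 8 mice (Massa, Medusa, Montana, Ohio, Prince, Grilka, Zelda and Oregon). The 8 tumors labeled WT lacked that allele and came from 4 mice. Mouse N42 gave 4 of them and mouse N43 gave 2, and the remaining tumors were a hind limb tumor of N215 and a tumor of N25 labeled as lung, for which the labels do not say whether it was a primary tumor or a metastasis. A body site is labeled for the WT tumors only. Where tumors share a mouse they are not independent, and p-values over 16 tumors then measure the spread between tumors rather than between mice.

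Polycomb proteins keep genes silent through 2 histone modifying complexes. Polycomb repressive complex 2 (PRC2) methylates histone H3 on lysine K27, with *Ezh1* or *Ezh2* as the alternative catalytic subunit, *Eed* and *Suz12* as obligate core subunits, and *Jarid2* as an accessory subunit that helps the complex bind chromatin. Polycomb repressive complex 1 (PRC1) places a ubiquitin on histone H2A through the E3 ligases *Ring1* (RING1A) or *Rnf2* (RING1B), held by a PCGF protein such as *Bmi1* (PCGF4), and in its canonical form it reads the PRC2 mark through a CBX protein such as *Cbx2* or *Cbx7*. *Ezh2* is known as a target of E2F factors that is raised in dividing cells, while *Ezh1* is known from resting and differentiated cells. SWI/SNF complexes are known to oppose Polycomb silencing, which is the background for looking at these genes by *Arid1a* genotype.

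Because E2F factors are released when the *Rb1* product is lost, the promoters of the members were searched for the E2F consensus, written out as TTTCCCGC, TTTCGCGC, TTTGCCGC and TTTGGCGC and their complements on the other strand. RefSeq windows on GRCm38.p6, which run from 250 bases before to 50 bases after a transcription start, were found for 9 of the 10 members, with 2 windows for *Jarid2*. Only the windows of *Ezh2* and *Suz12* held the consensus, which is also in 2.26% of all 32851 windows (744 windows). The 30 bases around each match are given 5′ to 3′ on the strand of the gene, with the consensus in capitals. The *Ezh2* match (chr6:47595009-47595038, minus strand) begins at base 4 of the transcript, and the *Suz12* match (chr11:79992876-79992905, plus strand) begins at base −219 counted from the start.
Ezh2 site: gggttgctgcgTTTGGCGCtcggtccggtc
Suz12 site: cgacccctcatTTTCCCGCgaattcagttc

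The upstream stretches outside annotated exons are shown for the members whose RNA followed the proliferation of the tumors, as described further on, where RefSeq holds a window. Capitals mark CCAAT or its complement ATTGG, a promoter box common in cell cycle genes. It is present in 37.4% of all windows, which are longer than the stretches shown, and the whole *Ezh2* window held 3. The *Ezh2* stretch (chr6:47595059-47595183, minus strand) held 2 of these boxes, the *Suz12* stretch (chr11:79992906-79993105, plus strand) and the *Cbx7* stretch (chr15:79932769-79932896, minus strand) held 1 each, and the *Rnf2* stretch (chr1:151500992-151501191, minus strand) and the *Ezh1* stretch (chr11:101226464-101226663, minus strand) held 0. The *Ezh2* and *Cbx7* stretches lie before the RefSeq start but inside the wider gene spans given further on. The box was not limited to the members shown. The whole *Eed* window and each *Jarid2* window held 1 box, and the windows of *Bmi1* and *Ring1* held 0. A further word searched, TTTGAA or its complement TTCAAA, was in 17.9% of all windows. It had 2 matches for *Eed*, 1 each for *Suz12* and *Cbx7*, and 0 in the other windows of members. A match in letters is a description of the sequence, and no binding was measured.
Ezh2 upstream: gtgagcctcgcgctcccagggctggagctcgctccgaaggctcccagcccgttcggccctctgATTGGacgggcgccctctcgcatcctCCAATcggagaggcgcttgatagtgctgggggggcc
Suz12 upstream: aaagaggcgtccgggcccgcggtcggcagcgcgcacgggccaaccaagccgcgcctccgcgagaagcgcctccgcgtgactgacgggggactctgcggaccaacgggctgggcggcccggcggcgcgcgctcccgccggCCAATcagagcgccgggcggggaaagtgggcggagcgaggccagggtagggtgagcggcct
Rnf2 upstream: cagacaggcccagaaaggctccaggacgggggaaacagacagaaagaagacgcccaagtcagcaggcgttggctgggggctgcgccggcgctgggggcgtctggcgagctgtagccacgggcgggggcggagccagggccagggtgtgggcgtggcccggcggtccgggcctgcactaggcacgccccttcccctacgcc
Ezh1 upstream: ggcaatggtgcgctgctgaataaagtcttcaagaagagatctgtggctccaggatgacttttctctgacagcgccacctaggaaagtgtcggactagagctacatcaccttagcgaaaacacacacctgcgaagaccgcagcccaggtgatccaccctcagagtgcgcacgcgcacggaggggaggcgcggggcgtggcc
Cbx7 upstream: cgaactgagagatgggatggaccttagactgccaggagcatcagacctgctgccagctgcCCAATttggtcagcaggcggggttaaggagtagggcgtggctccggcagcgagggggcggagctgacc

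Total counts per tumor ran from 1109487 (Massa) to 15059640 (Prince) in KO and from 7806160 (N215) to 16962329 (N42 R pelvis) in WT, so members are measured less precisely in the shallow KO libraries Massa and Grilka. A count of 3 was worth 6.69 CPM (counts per 1000000 of the normalized library) in Massa and 4.03 CPM in Grilka, a floor that covers counting error only. *Arid1a* itself was 187 ± 57.5 CPM in KO and 167 ± 31.8 CPM in WT (mean ± SD, n = 8 each), but it was counted over the whole gene, so this level does not check the deletion. A proliferation score was made for each tumor as the mean over 24 cell cycle genes, none of them a member, of log2 CPM centered on the gene's mean, so that 1 unit is 1 on the log2 scale. The score was −3.30 in Prince, −3.29 in Montana, −3.14 in Massa and −2.45 in Oregon, lay between 1.34 and 2.16 in the other 4 KO tumors, and lay between −0.57 and 1.89 in WT. The 4 KO tumors with low scores also stood apart in genes of other tissues. Summed lung marker RNA was 11161 CPM in Massa, with all 7 markers detected, and summed skeletal muscle marker RNA was 111189 CPM in Montana and 166058 CPM in Oregon. Summed salivary gland marker RNA was 114451 CPM in Prince. Their summed osteoblast marker RNA was between 714 and 3007 CPM, against 11738 to 60202 CPM in the other 4 KO tumors and 2899 to 83931 CPM in WT, where N25 (lung) was lowest and also held 26519 CPM of lung marker RNA. Among the KO tumors of high score, Zelda held 1218 CPM of liver marker RNA, with all 7 markers detected, against 24.5 CPM in Massa, the next highest. Zelda also held 1393 CPM of erythroid and 516 CPM of lymphoid marker RNA. Most tests that rest on the 4 KO tumors of low score are also given without those tumors. Family shares, correlations between genes and the lists of most similar genes are given only with them. In bulk tumor RNA, fewer cells of a type and less RNA per cell cannot be told apart.

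Compared between genes per kilobase of exon, *Bmi1* was the most abundant member with a median of 15.4 CPM per kb over the 16 tumors, followed by *Suz12* at 15.1 and *Rnf2* at 10.2 CPM per kb. *Eed* at 6.26, *Ezh1* at 6.19 and *Ezh2* at 4.96 CPM per kb came next, and *Jarid2* at 3.88, *Cbx7* at 3.10, *Ring1* at 2.60 and *Cbx2* at 1.74 CPM per kb were lowest. *Suz12* exceeded *Rnf2* in 15 of 16 tumors and *Rnf2* exceeded *Eed* in 13 of 16. The other neighbors in this order changed places from tumor to tumor, since *Bmi1* exceeded *Suz12* in 9, *Eed* exceeded *Ezh1* in 7, *Ezh1* exceeded *Ezh2* in 11, *Jarid2* exceeded *Cbx7* in 10 and *Ring1* exceeded *Cbx2* in 10 of 16 tumors.

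*Ezh2*, the catalytic subunit typical of dividing cells, rose with the proliferation of the tumors and did not pass the test between genotypes. *Ezh2* (ENSMUSG00000029687, chr6:47530139-47595341, GRCm38) was measured at a lowest value of 13.01, a median of 29.1 and a highest value of 133 CPM in KO, and at 20.7, 33.1 and 138 CPM in WT. The 4 lowest KO tumors were Montana at 13.01, Prince at 14.4, Oregon at 17.3 and Massa at 17.8 CPM (on only 8 counts), all below every WT tumor. The highest KO tumors were Medusa at 133 and Ohio at 85.9 CPM. In WT, 7 of the 8 tumors lay between 20.7 and 37.3 CPM, and N215 alone stood at 138 CPM. The 4 tumors of mouse N42 differed little (SD of log2 CPM 0.09), and between mice the SD was 1.201 over the 4 WT mice and 1.29 over the 8 KO mice.

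In the comparison of KO with WT (edgeR quasi-likelihood test, Benjamini-Hochberg adjustment over all genes tested), the log2 fold change of *Ezh2* was 0.14 ± 0.52 (SE), with an adjusted p of 0.906. The interval of that difference ran from −0.96 to 1.24, so neither a moderate rise nor a moderate fall can be told from no change with these tumors. With genotype held fixed, *Ezh2* rose by 0.53 ± 0.08 (SE) on the log2 scale per unit of the proliferation score, with an adjusted p of 0.000307. *Ezh2* had the steepest rise of the 10 members. The slope was between 0.48 and 0.55 when any 1 tumor was left out. It was 0.41 ± 0.07 in the 8 KO tumors alone (adjusted p = 0.0145) and 0.71 ± 0.22 in the 8 WT tumors alone (adjusted p = 0.186), and the test of the difference of the slopes gave an adjusted p of 0.930. Without the 4 KO tumors of low score the slope was 0.75 ± 0.21 and no longer past the threshold (adjusted p = 0.236).

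**Figure D1:**
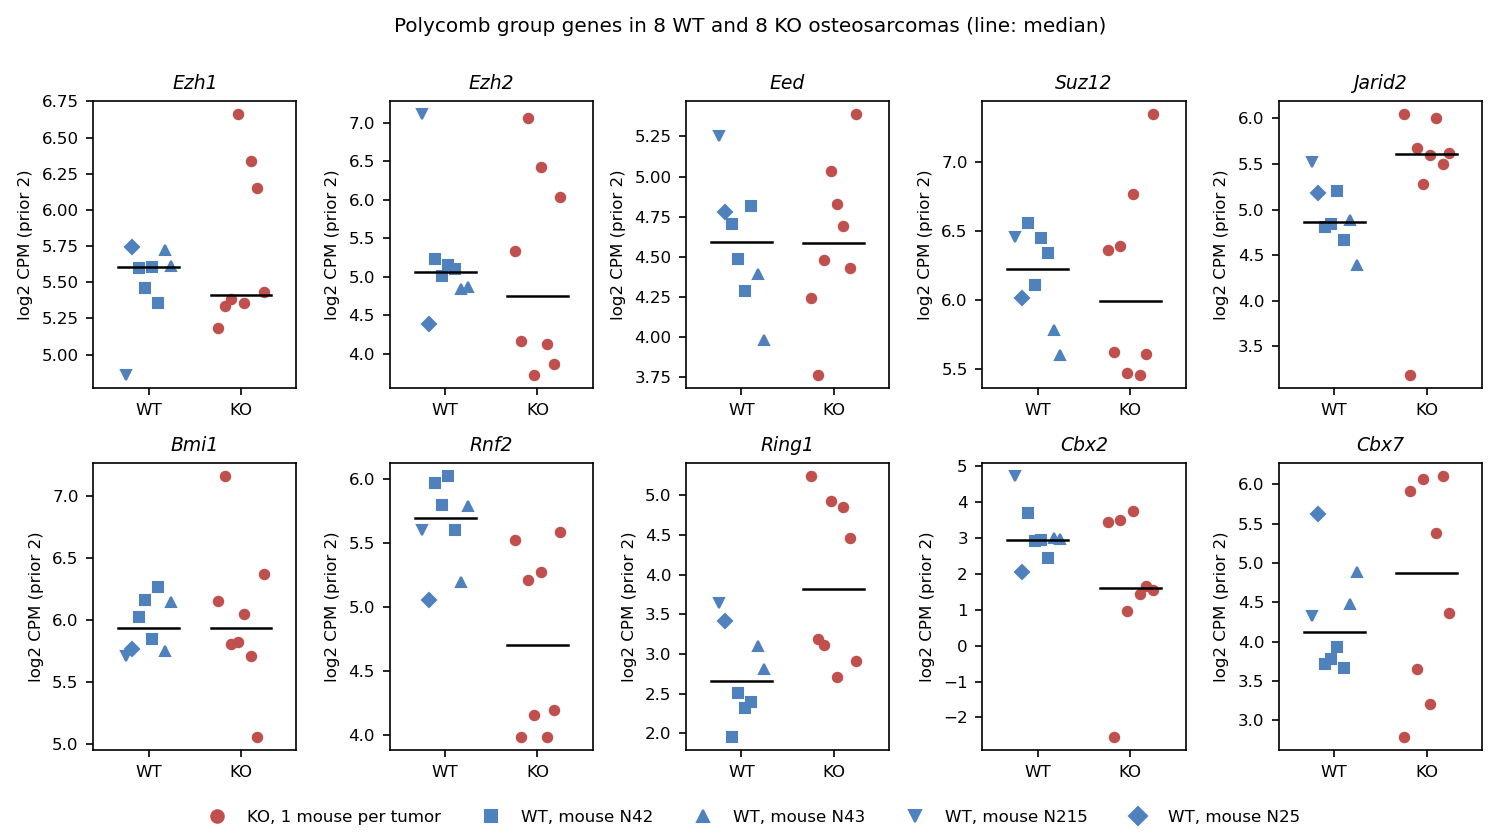
Level of each Polycomb group gene as log2 CPM (prior count 2) in 8 WT tumors (blue, marker by mouse) and 8 KO tumors (red), with a line at the median of each group. *Ring1* was higher in 4 KO tumors than in any WT tumor, *Rnf2* and *Ezh2* were lower in 4 KO tumors than in any WT tumor, and the lowest *Cbx2* point is a KO library with 0 counts.

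*Ezh1*, the paralog associated with resting tissue, fell with proliferation in the main fit, a call that many alternatives lost. *Ezh1* (ENSMUSG00000006920, chr11:101191115-101226463) was measured at 36.3, 42.3 and 101 CPM in KO (lowest, median and highest) and at 28.8, 48.4 and 53.5 CPM in WT. Montana at 101, Oregon at 80.8 and Prince at 70.8 CPM were above every WT tumor, while Massa at 40.1 CPM, the fourth KO tumor of low score, was not. N215, the WT tumor with the most *Ezh2*, had the least *Ezh1* of all 16 tumors.

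KO and WT were not separated in *Ezh1* (log2 fold change 0.32 ± 0.24, adjusted p = 0.455). *Ezh1* fell by 0.18 on the log2 scale per unit of score (SE 0.05, adjusted p = 0.0291). That call was lost when Medusa, Montana, Ohio, Grilka or Oregon was left out, with adjusted p-values of 0.0599, 0.107, 0.0655, 0.0512 and 0.0559. Without Montana and Oregon, the tumors with the most skeletal muscle marker RNA, the slope was −0.11 (adjusted p = 0.240), and without all 4 KO tumors of low score it was −0.14 (adjusted p = 0.817). With the mouse as a random effect in limma-voom it was −0.17 (adjusted p = 0.0562), and with a skeletal muscle score as a covariate it was −0.16 (adjusted p = 0.0468). In edgeR on counts summed per mouse the slope was −0.17 (adjusted p = 0.0995). The call held in 18 of 31 alternatives.

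Of the remaining PRC2 members, the core subunit *Suz12* rose with proliferation and its partner *Eed* did not pass the test. *Suz12* (ENSMUSG00000017548, chr11:79993106-80034123) was at 43.6, 65.5 and 162 CPM in KO and at 48.2, 74.8 and 94.1 CPM in WT. Oregon at 43.6 and Montana at 44.1 CPM were below every WT tumor, and Zelda at 162 and Ohio at 108 CPM were above every WT tumor. The slope was 0.26 ± 0.05 per unit of score (adjusted p = 0.00194) and lay between 0.22 and 0.29 when any 1 tumor was left out. Without the 4 KO tumors of low score it was 0.34 ± 0.14 (adjusted p = 0.446). The KO to WT difference of *Suz12* was 0.09 ± 0.29 (adjusted p = 0.886).

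*Eed* (ENSMUSG00000030619, chr7:89954654-89980983) was at 13.4, 24.0 and 41.7 CPM in KO and at 15.6, 24.0 and 37.9 CPM in WT. The lowest *Eed* value, in Massa, rests on 6 counts. The *Eed* slope of 0.08 ± 0.06 (adjusted p = 0.395) had an interval from −0.05 to 0.22. *Jarid2* (ENSMUSG00000038518, chr13:44729474-44921643) was at 8.92, 48.6 and 65.8 CPM in KO and at 20.8, 28.9 and 45.7 CPM in WT. *Jarid2* was higher in 5 KO tumors than in any WT tumor, namely Grilka, Oregon, Medusa, Zelda and Ohio, but Massa was the lowest of all 16 on only 4 counts. The KO to WT difference of 0.58 ± 0.29 did not pass (adjusted p = 0.239). It was 0.72 with an adjusted p of 0.0448 when Massa was left out, and 0.76 ± 0.22 with an adjusted p of 0.0562 when all 4 KO tumors of low score were left out. *Jarid2* had a slope of 0.10 ± 0.08 (adjusted p = 0.377).

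**Figure D2:**
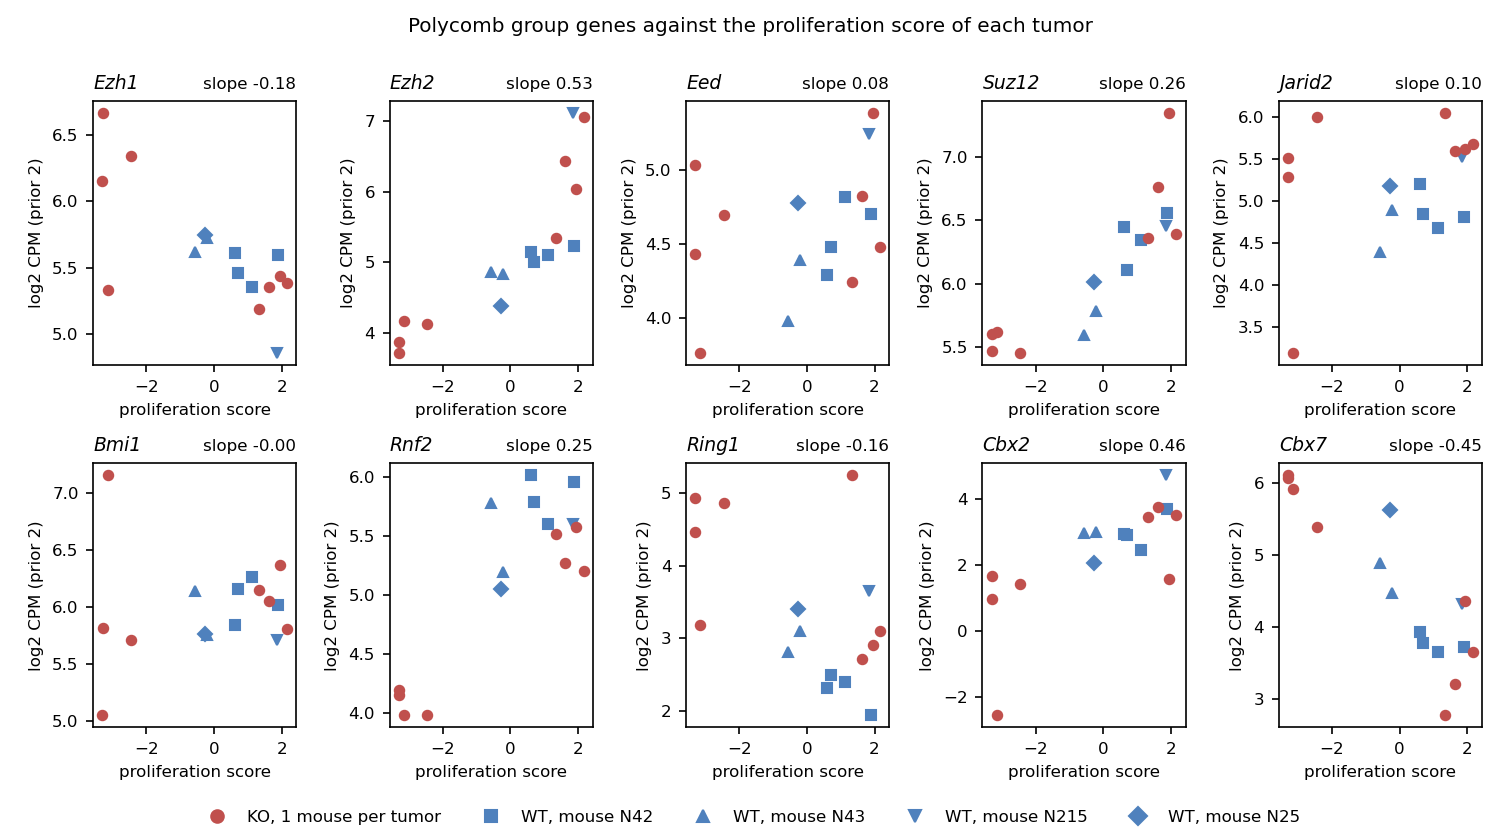
Log2 CPM of each Polycomb group gene against the proliferation score of the tumor (log2 units, mean over 24 genes), for 8 WT tumors (blue, marker by mouse) and 8 KO tumors (red), with the edgeR slope above each panel. The 4 KO tumors below −2 on the score hold much of the range on the horizontal axis, with low *Ezh2*, *Suz12*, *Rnf2* and *Cbx2* and high *Cbx7*.

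The PRC1 ligases *Rnf2* and *Ring1* had KO to WT differences of opposite sign, neither past the threshold. *Rnf2* (ENSMUSG00000026484, chr1:151458004-151500955) was at 15.6, 27.4 and 47.7 CPM in KO and at 33.0, 51.7 and 64.6 CPM in WT. Massa at 15.6 (on only 7 counts), Oregon at 15.7, Montana at 17.6 and Prince at 18.1 CPM were below every WT tumor. The other 4 KO tumors, at 36.7 to 47.7 CPM, lay within the WT range. *Ring1* (ENSMUSG00000024325, chr17:34020792-34024680) was at 6.39, 15.4 and 37.6 CPM in KO and at 3.69, 6.18 and 12.4 CPM in WT. Grilka at 37.6, Montana at 30.4, Oregon at 28.8 and Prince at 21.8 CPM were above every WT tumor. Grilka is a tumor of high score, so the tumors with the most *Ring1* were not the same 4 as those with the least *Rnf2*.

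*Rnf2* had a log2 fold change of −0.77 ± 0.28 (adjusted p = 0.119, unadjusted p = 0.0149 in edgeR) and *Ring1* of 1.38 ± 0.42 (adjusted p = 0.0682, unadjusted p = 0.00434 in edgeR). Across 28 alternatives *Ring1* kept its sign in all 28 and passed the threshold in 4, which were DESeq2 (adjusted p = 0.0150), the skeletal muscle score as a covariate (0.0465), leaving out Zelda (0.0351) and leaving out N215 (0.0435). With the mouse as a random effect in limma-voom, *Ring1* was at 0.81 (adjusted p = 0.660) and *Rnf2* at −0.70 (adjusted p = 0.577). In edgeR on counts summed per mouse, *Ring1* was at 1.12 (adjusted p = 0.650) and *Rnf2* at −0.58 (adjusted p = 0.717). *Rnf2* rose by 0.25 ± 0.05 per unit of the proliferation score (adjusted p = 0.00395), a call that was lost with the mouse as a random effect in limma-voom (0.21 ± 0.07, adjusted p = 0.0575). *Ring1* had a slope of −0.16 ± 0.11 (adjusted p = 0.326), and without the shallow libraries Massa and Grilka it fell by 0.32 on the log2 scale per unit (SE 0.09, adjusted p = 0.0223). At equal score the KO to WT difference was −0.59 ± 0.19 for *Rnf2* (adjusted p = 0.0768) and 1.11 ± 0.43 for *Ring1* (adjusted p = 0.128). The *Ring1* value at equal score was 0.54 ± 0.36 without Grilka, where *Ring1* rests on 28 counts (adjusted p = 0.425). Without the 4 KO tumors of low score the plain KO to WT difference was −0.27 ± 0.23 for *Rnf2* (adjusted p = 0.487) and 0.97 ± 0.50 for *Ring1* (adjusted p = 0.243). Those 4 tumors carried the lung, muscle or salivary gland RNA described above, and the part of those tissues in the ligase levels was not tested.

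A ratio of 2 genes within a library does not depend on how libraries are scaled against each other, and 3 such ratios of paralogs were compared. The log2 ratio of *Rnf2* to *Ring1* counts was −0.87 in Oregon, −0.78 in Montana, −0.27 in Prince, 0.28 in Grilka and 0.74 in Massa, and between 2.11 and 2.70 in the other 3 KO tumors. In WT it ran from 1.66 in N25 to 4.07 in N42 L limb. The mean was 0.81 ± 1.47 in KO and 2.89 ± 0.88 in WT (SD, n = 8 each), a difference of −2.08 (exact permutation test, two-sided, p = 0.00575, adjusted p over the 3 ratios 0.0172). Summed per mouse, with 8 KO and 4 WT mice, the difference was −1.63 and no longer past the threshold (exact permutation p = 0.0788). It was −1.37 without the 4 tumors of mouse N42 (exact permutation p = 0.121) and −0.97 without the 4 KO tumors of low score (exact permutation p = 0.129). As a share of the per-kilobase RNA of both ligases, *Ring1* made up 16.3% to 70.1% in KO with a median of 46.6%, and 7.01% to 28.7% in WT with a median of 12.8%.

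**Figure D3:**
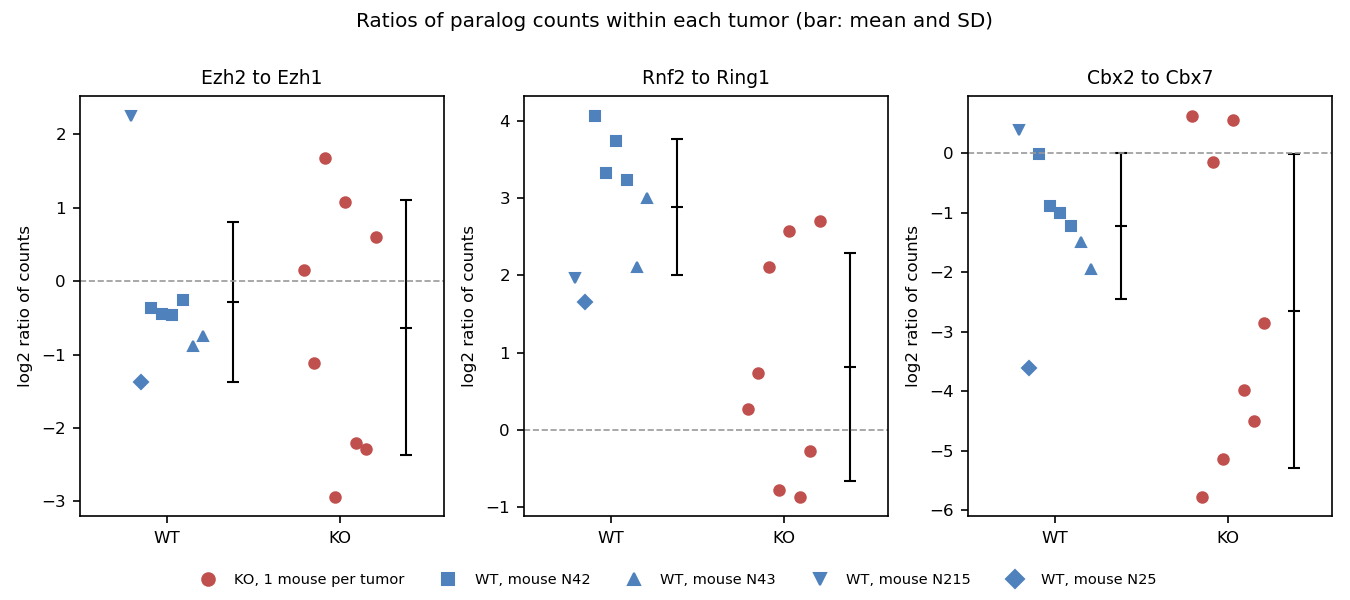
Log2 ratio of the counts of 2 paralogs within each tumor (0.5 added to each count) in WT (blue, marker by mouse) and KO (red), with the mean and SD of each group beside the points and a dashed line at 0. The *Rnf2* to *Ring1* ratio had a mean of 2.89 in WT and 0.81 in KO, and 5 KO tumors lay below every WT tumor.

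The other 2 ratios did not separate the genotypes. The log2 ratio of *Ezh2* to *Ezh1* ran from −2.94 (Montana) to 1.67 (Medusa) in KO and from −1.37 (N25) to 2.25 (N215) in WT, with means of −0.63 ± 1.74 and −0.29 ± 1.09 (SD, n = 8 each, exact permutation p = 0.638, adjusted 0.638). Its direction depended on the KO tumors of low score, since the difference was −0.35 with them and 1.16 without them (exact permutation p = 0.0828). The log2 ratio of *Cbx2* to *Cbx7* ran from −5.78 to 0.63 in KO and from −3.61 to 0.39 in WT, with means of −2.65 ± 2.63 and −1.22 ± 1.23 (SD, n = 8 each, exact permutation p = 0.182, adjusted 0.273). The difference was −1.43 with all tumors and 0.77 without the 4 KO tumors of low score (exact permutation p = 0.374).

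*Bmi1*, the PCGF subunit best known for the growth of stem and tumor cells, had the slope nearest to 0 of the 10 members over all 16 tumors. *Bmi1* (ENSMUSG00000026739, chr2:18677018-18686629) was at 33.0, 61.3 and 143 CPM in KO and at 52.3, 61.1 and 76.9 CPM in WT. Massa at 143 CPM and Prince at 33.0 CPM, both tumors of low score, were the highest and the lowest of all 16. The slope was −0.00 ± 0.07 (adjusted p = 0.981) with an interval from −0.15 to 0.14, and the KO to WT difference was 0.15 ± 0.25 (adjusted p = 0.765). Without Massa the *Bmi1* slope was 0.10, farther from 0 than that of *Jarid2* at 0.04. Among the 6 PCGF genes, *Bmi1* made up a median of 38.4% of the per-kilobase RNA in KO and 42.1% in WT.

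The chromobox genes *Cbx2* and *Cbx7*, which encode alternative readers of the PRC2 mark, changed in opposite directions with proliferation. *Cbx2* (ENSMUSG00000025577, chr11:119022962-119031270) was at 0, 2.88 and 13.4 CPM in KO and at 4.002, 7.57 and 26.1 CPM in WT. The 0 is from Massa, where a count of 0 allows a level of up to 6.69 CPM. Montana had 7 and Oregon 9 counts, so *Cbx2* was close to the limit of these libraries. *Cbx2* was below every WT tumor in 5 KO tumors, which were the 4 of low score and Zelda at 2.78 CPM, and the WT tumor N215 was the highest at 26.1 CPM. *Cbx2* rose by 0.46 ± 0.11 per unit of score (adjusted p = 0.0134), and the slope was 0.55 ± 0.27 without the 4 KO tumors of low score (adjusted p = 0.561). The call was also lost with the mouse as a random effect in limma-voom (0.43 ± 0.14, adjusted p = 0.0643) and without Montana and Oregon (0.44, adjusted p = 0.0695). The KO to WT difference of *Cbx2* was −0.76 ± 0.56 (adjusted p = 0.439), and it was −0.33 ± 0.54 without N215 (adjusted p = 0.751).

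*Cbx7* (ENSMUSG00000053411, chr15:79915807-79971119) was at 6.71, 31.0 and 68.5 CPM in KO and at 12.5, 17.5 and 49.2 CPM in WT. Prince at 68.5, Montana at 67.1 and Massa at 60.2 CPM were above every WT tumor, Oregon was at 41.7 CPM, and the WT lung tumor N25 was highest in its group at 49.2 CPM. Grilka at 6.71 CPM, on only 5 counts, and Ohio at 9.06 CPM were below every WT tumor, and Medusa was level with the lowest of them. *Cbx7* fell by 0.45 on the log2 scale per unit of score (SE 0.08, adjusted p = 0.000955). The slope was −0.34 ± 0.08 in the KO tumors alone (adjusted p = 0.0315) and −0.52 ± 0.21 in the WT tumors alone (adjusted p = 0.284), with an adjusted p of 0.995 for their difference. Without the 4 KO tumors of low score the slope was −0.42 ± 0.22 (adjusted p = 0.615). The KO to WT difference of 0.71 ± 0.48 (adjusted p = 0.400) turned to −0.80 ± 0.43 (adjusted p = 0.261) without those 4 tumors.

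**Figure D4:**
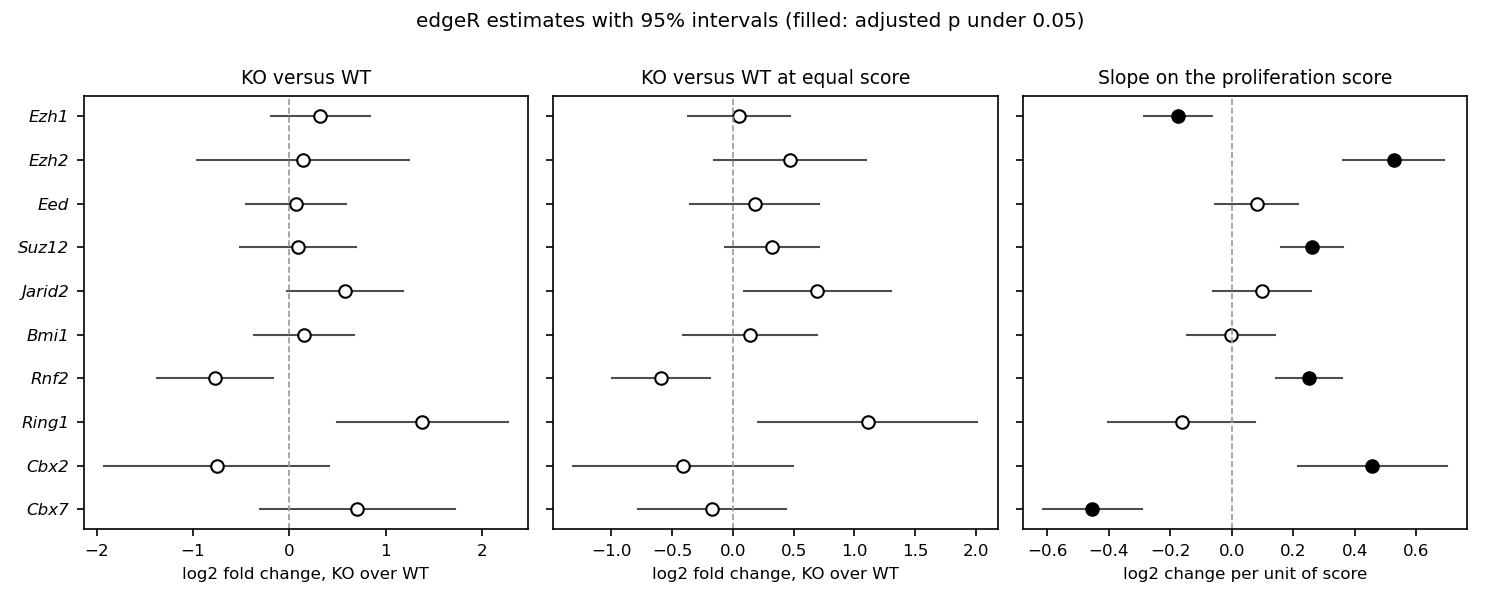
edgeR estimates of the 10 genes with 95% intervals, as the log2 fold change of KO over WT (left), the same at equal proliferation score (center) and the log2 change per unit of score (right), with a filled point where the adjusted p was under 0.05. Filled points are on the right only, for *Ezh2*, *Suz12*, *Rnf2* and *Cbx2* above 0 and *Ezh1* and *Cbx7* below 0.

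Counted together, 0 of the 10 members passed the threshold between KO and WT, where 4.01% of all genes tested did, and 2 of the 10 had an unadjusted p under 0.05 in edgeR, beside 23% of all genes. DESeq2 called 1 member, *Ring1*, beside 12.5% of all genes. At equal score 0 of 10 passed in edgeR, against 6.03% of all genes, with 3 at an unadjusted p under 0.05 beside 22.7% of all genes, and 2 called by DESeq2 (*Jarid2* and *Rnf2*) beside 12.3% of all genes. Of the 10 members, 6 changed with the proliferation score, against 17.4% of all genes. The 4 that rose stand beside 8.78% of all genes that rose, and the 2 that fell beside 8.61% that fell. With the mouse as a random effect in limma-voom, 3 of the 10 passed (*Ezh2*, *Suz12* and *Cbx7*), against 7.92% of all genes, and *Ezh1*, *Rnf2* and *Cbx2* did not (adjusted p = 0.0562, 0.0575 and 0.0643). In the edgeR fit without the shallow libraries Massa and Grilka, *Ring1* also passed (adjusted p = 0.0223). The median slope over the 10 members was 0.09, against 0.00 over all genes. No slope differed between KO and WT, with 0 of 10 members and 0% of all genes past the threshold in edgeR, 0 members and 980 genes (6.36%) at an unadjusted p under 0.05, and no other tool run.

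The 6 calls on the score were lost without the 4 KO tumors that hold its low end. Without Massa, Montana, Prince and Oregon, 0 of 10 members passed, and 72 of the genes tested did (0.415%). The slopes of the 6 kept their signs there, with values of 0.75 for *Ezh2*, 0.34 for *Suz12*, 0.15 for *Rnf2*, 0.55 for *Cbx2*, −0.14 for *Ezh1* and −0.42 for *Cbx7*. In the 8 KO tumors alone *Ezh2* and *Cbx7* passed, beside 6.69% of the genes tested there, and *Cbx2* was not tested for low counts. In the 8 WT tumors alone 0 passed, beside 0.776% of the genes tested there. The part of tissue other than tumor in the score and in these genes was not tested.

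**Figure D5:**
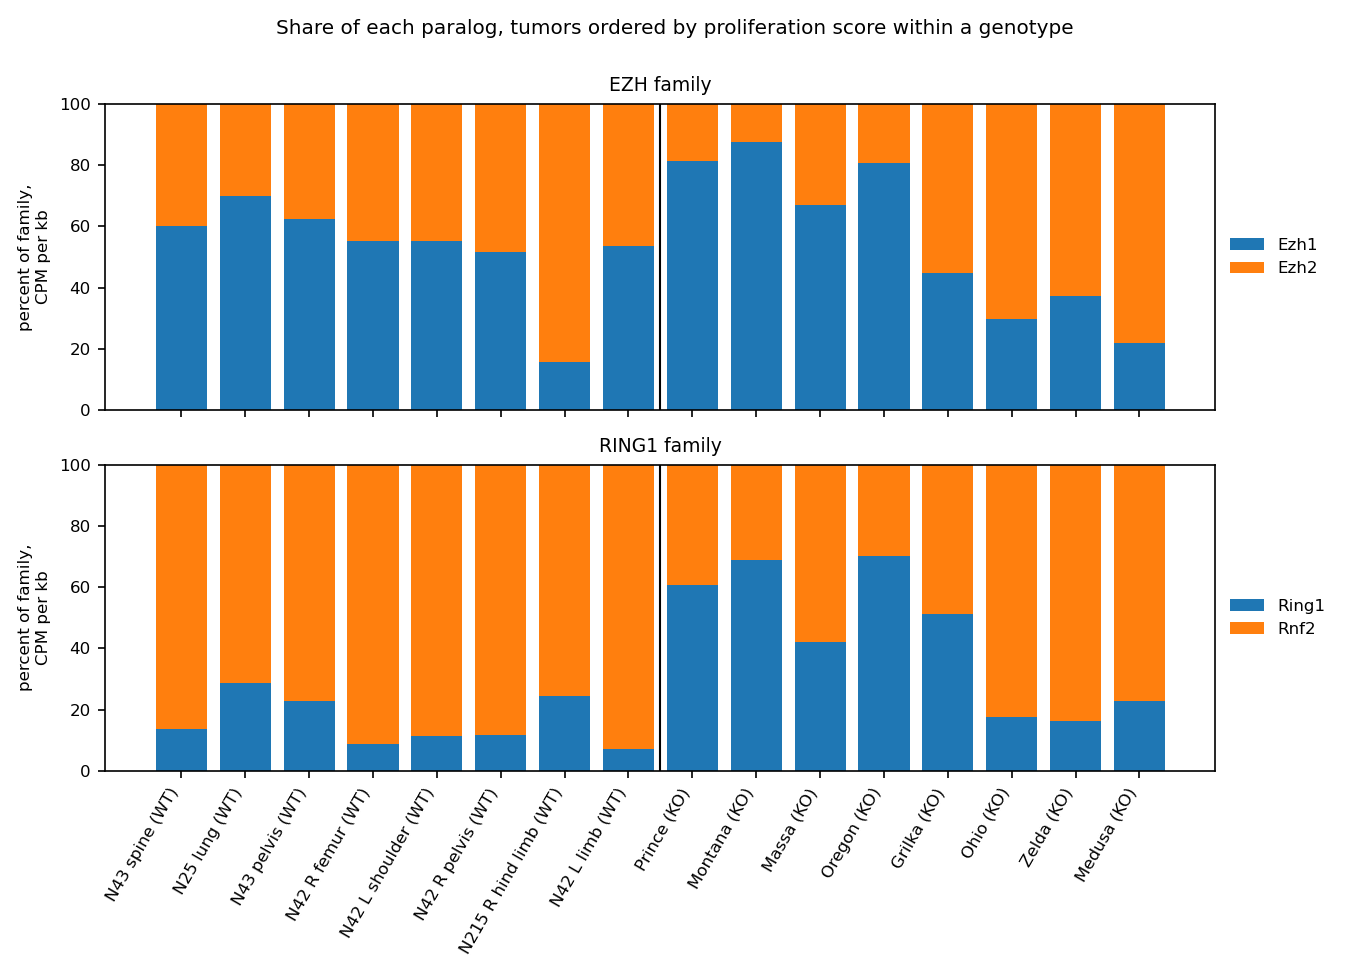
Share of each paralog in the summed CPM per kb of the EZH and RING1 pairs (percent) in each tumor, with WT left and KO right of the line and tumors ordered by rising proliferation score within a genotype. In KO, *Ezh1* made up between 22.0% and 87.5% of the EZH RNA, and *Ring1* between 16.3% and 70.1% of the RING1 RNA.

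Some of the members varied with each other from mouse to mouse, as a description over 12 mice that share the libraries and their scaling. Pearson's r of log2 CPM was 0.77 for *Ezh2* with *Suz12*, 0.71 for *Ezh2* with *Rnf2* and 0.76 for *Suz12* with *Rnf2*, and it was −0.73 for *Ezh2* with *Ezh1*, −0.75 for *Ezh2* with *Cbx7* and −0.80 for *Rnf2* with *Cbx7*. These pairs are all among members called on the score. Other pairs were near 0, such as *Eed* with *Ring1* (0.01), *Rnf2* with *Bmi1* (0.06) and *Ezh2* with *Bmi1* (0.08).

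The genes whose levels were most like each member over the 12 mice, among 16006 genes compared, are given without a test. For *Ezh2* they were *Kifc5b*, *Gins1* and *Mcm7* (Pearson's r 0.96 each), of which *Gins1* and *Mcm7* encode parts of the replicative helicase. For *Suz12* they included *Aunip* (0.93) and *Rbbp4* (0.92), the latter a histone chaperone that is itself a PRC2 subunit. For *Rnf2* they were *Kbtbd11*, *Oip5* and *3830403N18Rik* (0.96, 0.96 and 0.95), and for *Cbx2* *Ankrd6*, *Prtg* and *Nab2* (0.97, 0.96 and 0.95). For *Ezh1* they were *Agpat3*, *Armh3* and *Mlycd* (0.97, 0.94 and 0.93), and for *Cbx7* *Gm830*, *Crim1* and *Pdlim1* (0.98, 0.97 and 0.97). For *Ring1* they were *Arl2*, *Thap3* and *Ndn* (0.94, 0.93 and 0.92), for *Eed* *Nadk2*, *Ube3a* and *Tra2b* (0.92, 0.89 and 0.88), for *Bmi1* *Scoc*, *Rpl36a* and *9930017N22Rik* (0.90, 0.87 and 0.86), and for *Jarid2* *Gm29666*, *Gm11400* and *Prdm9* (0.98, 0.96 and 0.95).

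Most other Polycomb genes did not pass the test on either variable. Of 45 further Polycomb genes in the table, all tested, 0 passed between KO and WT in edgeR, beside 4.01% of all genes. At equal score 0 passed, beside 6.03% of all genes. At an unadjusted p under 0.05 in edgeR were 5 between KO and WT, beside 23% of all genes, and 3 at equal score, beside 22.7%. DESeq2 called 1 of the 45 between KO and WT, beside 12.5% of all genes. With the proliferation score 5 rose and 1 fell, against 17.4% of all genes called, and the median slope was 0.07 against 0.00 over all genes. Among the PRC2 accessory genes (9 tested), the histone chaperone *Rbbp4* rose by 0.18 ± 0.05 per unit of score (adjusted p = 0.0234), *Mtf2*, a Polycomb-like protein that recruits PRC2 to CpG islands, rose by 0.29 ± 0.07 (adjusted p = 0.00946), and *Lcorl* rose by 0.25 ± 0.08 (adjusted p = 0.0405). The abundant *Rbbp7* had a slope of 0.03 (adjusted p = 0.719) and *Aebp2*, which stabilizes PRC2, of 0.25 (adjusted p = 0.0607).

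Among 23 other PRC1 genes, *Scml2* rose by 0.80 ± 0.18 (adjusted p = 0.00732) from a low mean of 5.49 CPM, and *Pcgf5* fell by 0.27 on the log2 scale (SE 0.09, adjusted p = 0.0477). The most abundant of them per kilobase, *Fbrs*, *Phc2* and *Yaf2*, had slopes of 0.00, 0.09 and 0.26, none past the threshold. The KO to WT difference of *Yaf2*, at −1.58 (adjusted p = 0.166), rested on N42 L limb, which held 336 CPM where the next highest tumor held 35.6 CPM, and it was −0.10 without that tumor (adjusted p = 0.905). Among the 8 genes of the H2A deubiquitinase complex PR-DUB, *Asxl1*, which activates the deubiquitinase, rose by 0.21 ± 0.06 (adjusted p = 0.0281), while the deubiquitinase *Bap1* itself had a slope of 0.01 (adjusted p = 0.949) and *Foxk2* of 0.04 (adjusted p = 0.671). The DNA-binding factor *Yy1* had a slope of 0.08 (adjusted p = 0.437), *Sfmbt1* of 0.12 (0.306) and *Sfmbt2* of 0.49 (0.109). The H3K27 demethylases *Kdm6a* and *Kdm6b* had slopes of 0.01 (adjusted p = 0.911) and −0.01 (adjusted p = 0.974). When each tumor was left out in turn, the slope calls of *Mtf2* and *Scml2* held in all 16 fits, that of *Rbbp4* was lost in 3, that of *Asxl1* in 4, that of *Lcorl* in 12 and that of *Pcgf5* in 13. Without the 4 KO tumors of low score 0 of the 45 passed with the score, beside 0.415% of the genes tested there.

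Of 38 developmental genes and cell cycle inhibitors known as Polycomb targets in other cells, 29 were in the table and only 10 had enough counts to test, so the 10 do not stand for the whole list. Between KO and WT 0 of the 10 passed in edgeR, beside 4.01% of all genes. At an unadjusted p under 0.05 in edgeR were 2, beside 23% of all genes, and DESeq2 called 3, beside 12.5% of all genes. The slope on the score passed in 5 of the 10, beside 17.4% of all genes. With the proliferation score, *Cdkn2a*, which encodes p16 and p19 ARF, rose by 0.94 ± 0.19 (adjusted p = 0.00388), and the transcription factor gene *Lhx2* rose by 0.64 ± 0.21 (adjusted p = 0.0420). The transcription factor genes *Tbx3* and *Sox17* fell by 0.55 and 0.45 on the log2 scale per unit of score (adjusted p = 0.00490 and 0.0375). The highest *Tbx3* tumors were Massa at 82.5 and N25 at 70.5 CPM, and the highest *Sox17* tumors were N25 at 33.8 and Massa at 17.8 CPM. Massa and N25 also held the most lung marker RNA, and the part of lung tissue in these levels was not tested. At equal score 1 of the 10 passed in edgeR, beside 6.03% of all genes. This was *Tbx3*, with a KO to WT difference of −1.65 (adjusted p = 0.0451), a call lost in 12 of the 16 fits that left out 1 tumor. Its value at equal score without the 4 KO tumors of low score is not given here. The slope calls of *Cdkn2a* and *Tbx3* held in all 16 such fits, that of *Lhx2* was lost in 10 and that of *Sox17* in 9. Among the 3 most abundant per kilobase, *Irx3* and *Cdkn2b* did not pass, with slopes of −0.02 (adjusted p = 0.961) and 0.25 (adjusted p = 0.236). Without the 4 KO tumors of low score 0 of the 10 passed with the score, beside 0.415% of the genes tested there.

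In 5 members exons overlap those of a gene on the opposite strand, and the strand used in counting is not given in the sources used here, so reads of the pair cannot be told apart. The overlap is 158 bases for *Rnf2* with *Trmt1l*, 100 bases for *Cbx7* with *Apobec3*, 261 bases for *Eed* with *E230029C05Rik*, 174 bases for *Ezh2* with *Gm26625* and 178 bases for *Suz12* with *Gm26563*. These stretches are short beside exon lengths of 4127, 6487, 3828, 6678 and 4945 bases.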

How the data were processed

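RNA of 16 mouse osteosarcomas (8 KO, 8 WT) was depleted of ribosomal RNA and sequenced from 1 end. Per the paper's methods and the submitters' processing notes, the authors aligned the reads with Novoalign 2.08.01 to mm10, allowed several alignments per read, counted reads per gene with USeq and ran DESeq2 1.26.0. The deposited values used here are the raw counts per gene, not normalized by the authors. The smallest total of a gene in the table is 6 counts, and the strand used in counting is not given in the sources used here.

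Groups came from the tumor labels, and tumors that share an animal code were taken as tumors of 1 mouse. No batch is labeled. Counts were fitted with edgeR 4.0.16 in R 4.3.3 (TMM factors, quasi-likelihood F tests, genes kept by filterByExpr with minima of 10 counts and a total of 15, Benjamini-Hochberg over 15413 genes, threshold 0.05, two-sided). The designs were genotype alone, genotype plus proliferation score, and their interaction. CPM are counts over the normalized size of the library, summed over the genes tested. The paralog ratios were compared with exact permutation tests over 12870 splits of the tumors, whose smallest p is 0.000155, or over 495 splits of the 12 mice. DESeq2 1.42.0, limma 3.58.1 (voom, mouse as random effect) and other alternatives were tried. Fits were tested on simulated data. Exon lengths and positions came from GENCODE vM21 (GRCm38), promoter sequences from RefSeq (GRCm38.p6), and figures from Python 3.11.15 with matplotlib 3.10.9.

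The members and gene lists were chosen with earlier results of these data known, and the lists were written by hand. Named are all 10 members, the genes of each other Polycomb list and of the target list that passed in any fit, the 3 most abundant of each (per kilobase), and the 3 genes most like each member. *Trmt1l*, *Apobec3*, E230029C05Rik, Gm26625 and Gm26563 fall outside this rule and are named for their overlap. Some genes that the rule would name are not reported here. Leaving out the 4 KO tumors of low score, and the fits within 1 genotype, were chosen after seeing the data.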

Additional observations from a re-analysis of the deposited data

Results flagged for a closer look

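In each group of 8 tumors, the gap between the most extreme tumor and its nearest neighbor was divided by the range of the group and set against Dixon's 95% critical value, for the CPM of the 10 members, the 3 paralog ratios and the proliferation score. Of 28 such groups 5 held a tumor that stood apart. Chance alone sets apart about 1 in 20 where the 8 values are independent and normally distributed. CPM are on the linear scale and the groups share tumors, so 5 of 28 cannot be read against that rate. The 8 WT tumors also come from 4 mice and are not independent, and 4 of the 5 are in WT. Each of the 5 is given as a value, and no cause was tested.

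*Ezh2* in WT stood apart in N215 R hind limb, at 138 CPM against 37.3 CPM in the next tumor. The same tumor stood apart in *Cbx2*, at 26.1 CPM against 12.9 CPM, and in the log2 ratio of *Ezh2* to *Ezh1*, at 2.25 against −0.26. *Cbx7* in WT stood apart in N25 lung, at 49.2 CPM against 29.4 CPM, in the library that also held 26519 CPM of lung marker RNA. *Bmi1* in KO stood apart in Massa, at 143 CPM against 82.7 CPM in the next tumor, in the shallowest library, where it rests on 64 counts.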

How the results depend on the processing

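No paired analysis was possible because the KO and WT tumors came from different mice, so the replicate numbers do not pair them. Depth limits the low members (*Cbx2*, *Ring1*) in Massa and Grilka. It also limits *Ezh2*, *Eed*, *Jarid2* and *Rnf2* in Massa and *Cbx7* in Grilka. The 4 WT mice limit every test of genotype. All slopes of the members except that of *Bmi1* kept their sign in every alternative. In the values below the order is all genes, members, other Polycomb genes and target genes past the threshold, where 1 of these moved, against 618, 0, 0 and 0 for KO versus WT, 929 and 0 for KO versus WT at equal score (all genes and members) and 2680, 6, 6 and 5 for the slope. For each value that moved or turned, the cause was not tested.

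With DESeq2, KO versus WT gave 2517, 1, 1 and 3, of whose all-gene calls 61.9% were higher in KO against 46.4% in edgeR, equal score gave 2549 and 2, and the slope gave 5084 genes and 9 target genes. With limma-voom and the mouse as a random effect, KO versus WT gave 17 genes, equal score 19, and the slope 1220, 3, 2 and 1, while *Ezh2* between KO and WT turned to −0.072 and the *Bmi1* slope to 0.069. Summed per mouse, KO versus WT gave 10 genes, equal score 17, the slope 1662 genes with 3 other Polycomb and 3 target genes, *Ezh2* turned to −0.14 and *Eed* to −0.010 between KO and WT, and the *Bmi1* slope to 0.0031. The *Rnf2* to *Ring1* ratio became −1.63.

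Upper-quartile factors turned the *Bmi1* slope to 0.0013 and no filter to 0.018. With a skeletal muscle score KO versus WT gave 1035 genes and 1 member (*Ring1*), equal score 1442, and *Suz12* turned to −0.069 between KO and WT. With the replication score 1 member (*Rnf2*) passed at equal score and *Cbx7* turned to 0.25 there. Without N25, *Cbx7* at equal score turned to 0.039.

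Without the 4 tumors of N42, KO versus WT gave 8 genes, equal score 12, the slope 1323 genes with 2 other Polycomb and 3 target genes, *Ezh2* turned to −0.10 between KO and WT, and the *Rnf2* to *Ring1* ratio became −1.37. Without Montana and Oregon, KO versus WT gave 372 genes and the slope 1518 genes and 1 target gene, *Ezh1* turned to −0.015 and *Eed* to −0.0070 between KO and WT, *Ezh1* to −0.077 at equal score, and the *Ezh2* to *Ezh1* ratio to 0.30. Without Massa and Grilka, KO versus WT gave 1 other Polycomb and 1 target gene and the slope 3 target genes, and *Bmi1* turned to −0.15 between KO and WT, −0.059 at equal score and 0.10 for the slope.

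Without Massa, Montana, Prince and Oregon, KO versus WT gave 976 genes and 1 target gene, with the median of all genes shifted by −0.14, equal score gave 26 genes, and the slope gave 72, 0, 0 and 0. *Ezh1* turned to −0.18 and *Cbx7* to −0.80 between KO and WT, *Ezh1* to −0.011 and *Eed* to −0.14 at equal score, the *Bmi1* slope to 0.024, the *Ezh2* to *Ezh1* ratio to 1.16 and the *Cbx2* to *Cbx7* ratio to 0.77, and the *Rnf2* to *Ring1* ratio became −0.97. The slope gave 539, 2, 0 and 0 in the KO tumors alone and 108, 0, 0 and 0 in the WT tumors alone, with *Bmi1* at 0.031 and 0.00087.

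Leaving out each tumor in turn gave 252 (without N42 L shoulder) to 1348 (without Zelda) genes for KO versus WT, 354 (without Medusa) to 1553 (without Zelda) at equal score and 1708 (without Medusa) to 3018 (without N215) for the slope. Members past the threshold ranged from 0 to 1 for both KO versus WT tests and from 5 to 6 for the slope, other Polycomb genes from 0 to 2 for KO versus WT and from 2 (without Ohio) to 7 for the slope, and target genes from 0 to 1 for KO versus WT and from 2 (without Medusa) to 5 for the slope. The *Ezh2* to *Ezh1* ratio ranged from −0.68 to 0.016 (without N215). Between KO and WT, *Ezh2* ranged from −0.28 to 0.70, *Eed* from −0.075 to 0.23, *Suz12* from −0.16 to 0.18 and *Bmi1* from −0.079 to 0.25, at equal score *Bmi1* from −0.011 to 0.20, *Cbx7* from −0.45 to 0.039 and *Ezh1* from −0.0011 to 0.091, and the *Bmi1* slope from −0.050 to 0.10. The difference of the slopes gave 0 genes and 0 members in every alternative run.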
